A study of Mus musculus with 12 samples.

Results

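The clonotypes of CD8+ T cells in the tumors of IL-10-Fc-treated mice were traced into the tumor-draining lymph node (tdLN) of mice given the same treatment. A clonotype was a T cell receptor (TCR) chain with its V region, its J region and the nucleotide sequence of its CDR3, and it was called listed when the other library held at least 1 unique molecular identifier (UMI) of it with at least 3 reads. Of the 93553 clonotypes of the IL-10-Fc tumor library, 7421 were listed in the IL-10-Fc tdLN library, which held 174029 clonotypes itself. By chain, these were 2546 of 54779 clonotypes of TCRβ (4.65%; named TRBC in the data), 4771 of 38233 of TCRα (12.5%; TRAC), 91 of 202 of TCRγ (TRGC) and 13 of 339 of TCRδ (TRDC).

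The study compared IL-10-Fc, an Fc fusion of the cytokine interleukin-10, with an antibody to the macrophage receptor CSF1R (αCSF1R), with BF10, in which IL-10 is fused to that antibody, and with a control IgG. The mice carried tumors of Q1-2, a mouse oral cancer line used as a model of head and neck squamous cell carcinoma, and all were of wild-type genotype. The labels give 3 doses, equivalent to 30 mg/kg, at an interval of 3 days for every treatment. The methods describe equivalent doses as matched by molecular weight, so the mass of IL-10-Fc given can differ from that of the antibodies. The methods list C57BL/6J and BALB/c mice bought at 6 to 8 weeks of age, and describe the Q1-2 tumor as a C57BL/6 model without naming the strain for the TCR libraries. The study describes CD8+ T cells taken from tumor, spleen and tdLN with magnetic beads. The sample titles name CD8 for tumor and spleen but not for the tdLN. The RNA of 3 mice was mixed into 1 library for each treatment and tissue, which gave 12 libraries with 1502315 listed clonotypes. Whether the same 3 mice gave both the tumor and the tdLN is not given in the sources used here. With 1 mixed library on each side there is no replicate, no test between the 2 tissues was possible, and every interval below is a 95% interval that covers counting error only. UMIs mark RNA molecules, so a clonotype with more UMIs could have more cells or more TCR RNA per cell, and the 2 cannot be told apart.

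Each TCR chain is made when a developing T cell joins a V segment to a J segment, with a D segment between them in the β and δ chains. Bases are trimmed from the ends and others are added without a template, and the joint, called the CDR3, makes the main contact with the antigen peptide. A CDR3 with many added bases is rarely made a second time, whereas one that is germline V joined to germline J can arise in many cells and many animals. A naive CD8+ T cell that meets its antigen in the draining node divides there, and its descendants, which all carry the same CDR3, can leave the node and enter the tumor. Listing in both tissues can therefore come from 1 clone or from the same joint made more than once, and the libraries of mice given other treatments show how often a tumor clonotype is found in a node of different animals.

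The CDR3s of the 10 TCRβ clonotypes with the most tumor UMIs are printed because the comparison with the node turns on them. Capitals mark the bases that neither the germline V nor the germline J segment accounts for, which in TCRβ include those of the D segment, and the number after each name is the place in the tumor library.
Trbv14/Trbj2-1, place 1: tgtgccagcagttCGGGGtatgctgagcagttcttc
Trbv16/Trbj2-7, place 2: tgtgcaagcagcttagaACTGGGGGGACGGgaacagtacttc
Trbv26/Trbj1-4, place 3: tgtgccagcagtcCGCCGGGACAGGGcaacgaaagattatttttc
Trbv19/Trbj1-2, place 4: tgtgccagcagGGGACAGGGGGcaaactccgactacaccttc
Trbv17/Trbj1-1, place 5: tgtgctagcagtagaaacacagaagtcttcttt
Trbv5/Trbj2-3, place 6: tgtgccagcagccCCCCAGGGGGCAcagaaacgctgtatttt
Trbv13-2/Trbj2-7, place 7: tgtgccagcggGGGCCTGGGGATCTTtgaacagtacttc
Trbv16/Trbj2-7, place 8: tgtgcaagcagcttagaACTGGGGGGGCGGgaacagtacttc
Trbv16/Trbj2-7, place 9: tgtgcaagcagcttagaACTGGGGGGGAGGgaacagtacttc
Trbv13-1/Trbj1-6, place 10: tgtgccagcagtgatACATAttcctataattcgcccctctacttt

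Of these 10, 8 were listed in the IL-10-Fc tdLN. The Trbv14/Trbj2-1 clonotype had 476 UMIs in the tumor and 21 in the tdLN, where it stood at rank 141, and its share of TCRβ UMIs was 32.2-fold higher in the tumor (20.9 to 52.6). The Trbv19/Trbj1-2 clonotype had 399 and 17 UMIs, with rank 221 in the tdLN and a ratio of 33.4 (20.6 to 57.9). The Trbv13-1/Trbj1-6 clonotype had 325 and 26 UMIs, with rank 92 and a ratio of 17.8 (11.9 to 27.6). None of these 3 was listed in any library of another treatment. In the node all 3 lay below the places they held in the tumor, which a choice by tumor UMIs favors. The Trbv13-2/Trbj2-7 clonotype had 365 UMIs in the tumor and only 4 in the tdLN, at rank 2827, a ratio of 130 (50.3 to 479).

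Among the first 10, 2 clonotypes were not listed in the tdLN. The Trbv26/Trbj1-4 clonotype had 453 tumor UMIs, and its share was at least 215-fold higher in the tumor when the tdLN was set to the 3 UMIs that a count of 0 allows. The Trbv5/Trbj2-3 clonotype had 379 tumor UMIs and was at least 180-fold higher. Neither was listed in the IL-10-Fc spleen or in any library of another treatment, so both sequences were seen in the tumor library alone. A second tumor clonotype with the same V, J and CDR3 peptide as the Trbv26/Trbj1-4 clonotype was listed in the tdLN with 3 UMIs, and the pair had 537 tumor UMIs.

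The clonotype at place 5 differed from the others in sequence and in where it was found. Its CDR3 holds 0 bases outside Trbv17 and Trbj1-1, and it was listed in 8 of the 9 libraries of other treatments. It had 384 UMIs in the IL-10-Fc tumor and 95 in the tdLN, where it ranked 7, while the nodes of other treatments held 29 (control IgG), 11 (αCSF1R) and 23 (BF10). The tumors of those treatments held 924, 233 and 199 UMIs of it. Its listing in the IL-10-Fc node was therefore not particular to mice of that treatment.

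Places 2, 8 and 9 share Trbv16, Trbj2-7 and the CDR3 peptide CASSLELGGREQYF, and so does the clonotype at place 14:
Trbv16/Trbj2-7, place 14: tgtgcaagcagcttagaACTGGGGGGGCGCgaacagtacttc

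These 4 nucleotide forms lay 1 to 2 bases apart, all within the capitals, and had 468, 352, 326 and 285 UMIs in the tumor. In the tdLN they had 64, 7, 10 and 153 UMIs, so the form at place 14 in the tumor was the most abundant TCRβ clonotype of the node (rank 1). The order of the 4 forms was thus not the same in the 2 tissues. The BF10 tumor held 2, 55 and 5 UMIs of the forms at places 8, 9 and 14, and the BF10 tdLN 0, 7 and 29. The control IgG tdLN held 1 UMI of the form at place 8. The ratio of tumor share to tdLN share was 10.4 (8.00 to 13.7), 71.5 (34.4 to 179), 46.4 (24.9 to 97.6) and 2.65 (2.17 to 3.25). Over all its forms the peptide took 1447 TCRβ UMIs in the tumor (14 forms, 1.11%), 238 in the tdLN (7 forms, 0.129%) and 14 in the IL-10-Fc spleen (5 forms, 0.00839%). Trbv16 lies at chr6:41151740-41152230 and Trbj2-7 at chr6:41543810-41543856, both on the plus strand of GRCm38.

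The listing of all clonotypes gave a different picture from that of the most abundant ones. Of all TCRβ clonotypes of the IL-10-Fc tumor, 4.65% were listed in the IL-10-Fc tdLN (4.47% to 4.83%). The same tumor clonotypes were listed at 5.29% in the BF10 tdLN, 5.24% in the αCSF1R tdLN and 2.88% in the control IgG tdLN. Over all clonotypes, the node of the same treatment was thus not the one with the highest share, at 0.879 times that of the BF10 node (0.834 to 0.925). Weighted by tumor UMIs, listed clonotypes held 10.7% of TCRβ UMIs for the IL-10-Fc node, against 6.72% (BF10), 5.89% (αCSF1R) and 3.86% (control IgG).

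The tdLN libraries differed in reads per UMI, which bears on these shares. Of all UMIs in the IL-10-Fc tdLN, 33.5% had 7 or more reads, against 38.7% in the control IgG tdLN, 9.94% in the αCSF1R tdLN and 8.00% in the BF10 tdLN. With UMIs of at least 7 reads in both libraries, 2.79% of TCRβ tumor clonotypes were listed in the IL-10-Fc tdLN and 1.66% in the highest of the other nodes (control IgG), a ratio of 1.68 (1.53 to 1.85). With at least 2 UMIs in each library, the ratio was 1.23 (1.12 to 1.35) and the next node was that of αCSF1R. The direction of the comparison over all TCRβ clonotypes therefore turned with the reads or the UMIs required. With every tdLN library thinned to the same number of TCRβ UMIs, the shares were 3.77% (IL-10-Fc), 3.78% (BF10), 3.71% (αCSF1R) and 2.88% (control IgG).

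Among the 100 most abundant TCRβ clonotypes of the tumor, 58 were listed in the IL-10-Fc tdLN (48.2% to 67.2%). The nodes of the other treatments listed 11 (BF10), 7 (control IgG) and 5 (αCSF1R) of the same 100. The IL-10-Fc spleen listed 25, and the spleens of other treatments listed 2 to 4. The IL-10-Fc tdLN listed more of the first 100 than each other node under every alternative that was tried, with 49 in the IL-10-Fc tdLN against at most 5 at 7 reads, 49 against at most 8 at 2 UMIs, and 54.4 against at most 9.61 after thinning. By CDR3 peptide alone, without V, J or the bases, the counts were closer, at 87 against 59 to 65.

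**Figure D1:**
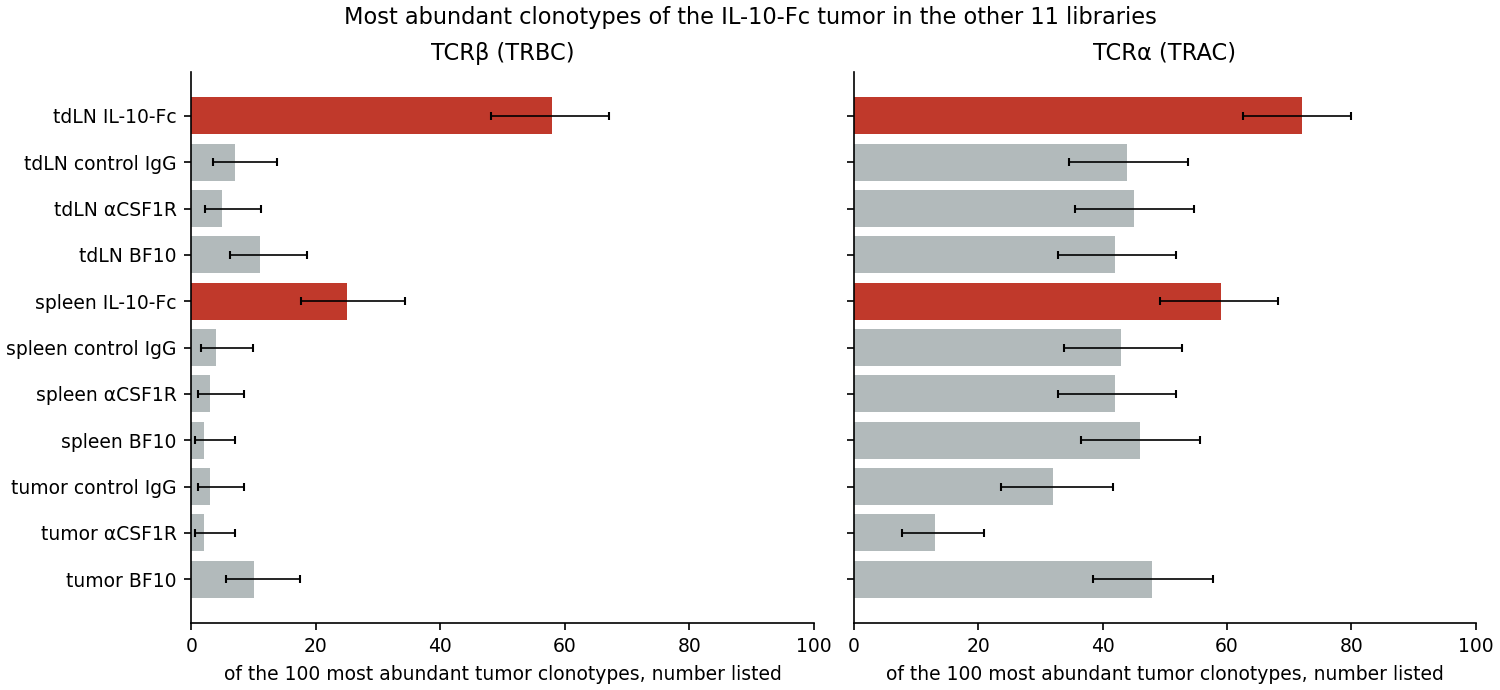
Bars give how many of the 100 most abundant clonotypes of the IL-10-Fc tumor library were listed in each other library, for TCRβ (left) and TCRα (right), with IL-10-Fc libraries in red and 95% Wilson intervals for counting error as lines. The IL-10-Fc tdLN listed 58 TCRβ and 72 TCRα clonotypes, and the other nodes listed 5 to 11 and 42 to 45.

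The share listed rose with the number of tumor UMIs, and only in the upper part of the range did it stand apart from the other nodes. TCRβ clonotypes with 1 tumor UMI were listed in the IL-10-Fc tdLN at 3.84% (833 of 21717), against 2.37% to 4.67% in the other nodes. At 6 to 10 UMIs the share was 8.67% (140 of 1614), against 6.13% to 10.1%. At 11 to 20 UMIs it was 26.7% (35 of 131; 19.9% to 34.9%), against 9.92% to 18.3%. At 21 to 50 UMIs it was 57.9% (22 of 38; 42.2% to 72.1%), and above 50 UMIs it was 74.4% (32 of 43; 59.8% to 85.1%). The other nodes lay at 2.63% to 7.89% and at 4.65% to 14.0% in these last 2 classes, outside the counting intervals of the IL-10-Fc node.

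**Figure D2:**
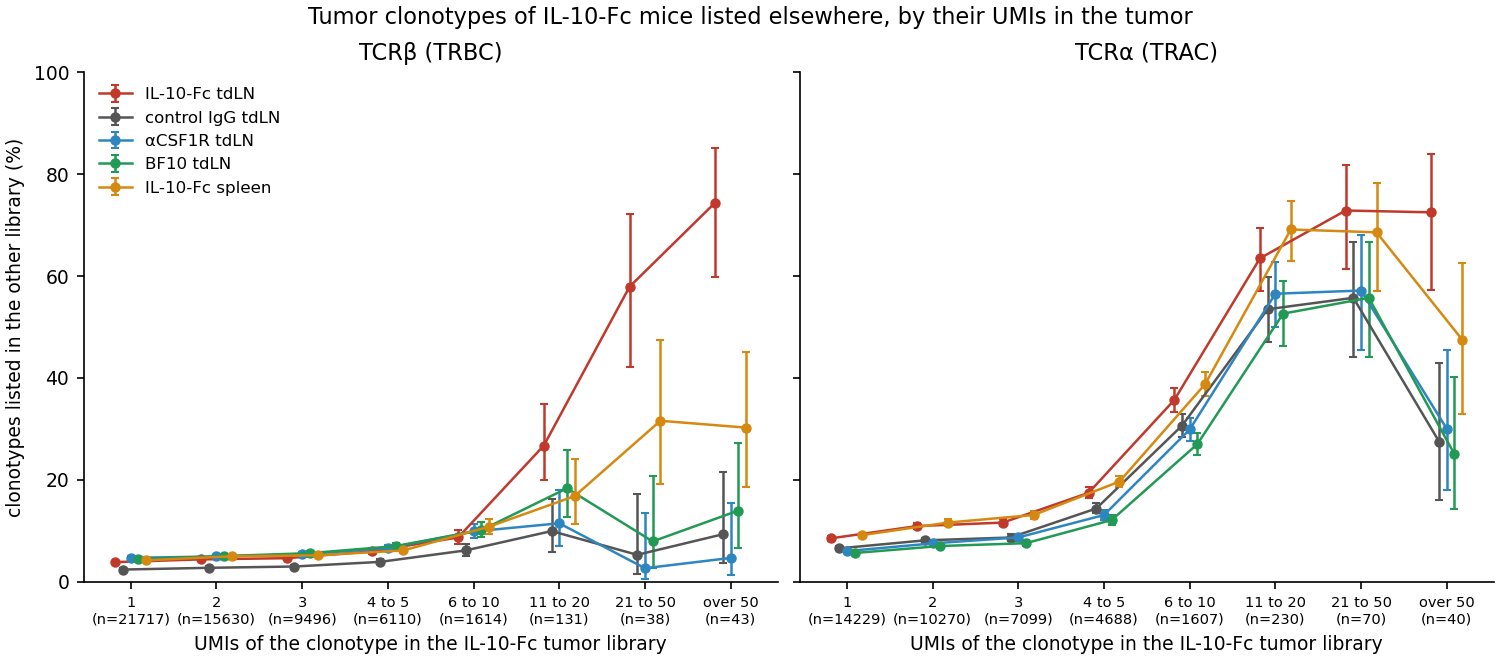
Each point is the percent of IL-10-Fc tumor clonotypes listed in a tdLN library or in the IL-10-Fc spleen (y axis), by the number of UMIs of the clonotype in the tumor (x axis, with the number of clonotypes n), with 95% Wilson intervals. For TCRβ the IL-10-Fc tdLN reached 74.4% above 50 UMIs while the other nodes stayed at 4.65% to 14.0%, and for TCRα it reached 72.5% against 25.0% to 30.0%.

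In the node, the listed clonotypes of the tumor's first 100 were spread over a wide range of ranks. Of the 58 TCRβ clonotypes, 2 were among the first 10 of the tdLN, 11 among its first 100 and 24 among its first 1000, and 9 had a single UMI. The median rank in the node was 1352, and the median of the ratio of tumor share to tdLN share was 13.6, from 0.613 to 441. A larger share in the tumor was seen for 56 of the 58. The 58 were chosen by their tumor UMIs, which favors a larger share and a higher place in the tumor. The ratios and ranks therefore describe these clonotypes and do not show a leaning of shared clonotypes to the tumor. The 441, looked up after the range was seen, belongs to a Trbv2/Trbj2-7 clonotype with 310 tumor UMIs and 1 tdLN UMI (interval 78.6 to 17474).

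No library of another treatment listed 45 of the 58, which held 5509 tumor UMIs (4.23% of TCRβ), whereas 13 were also listed for another treatment (1881 UMIs, 1.45%). The same held for 35 of the 42 that the tdLN did not list, so absence from the other treatments did not mark the listed clonotypes of the first 100. The IL-10-Fc spleen also listed 19 of the 58, and 39 were in the tdLN but not in the spleen. Of the 42 that the tdLN did not list, 6 were in the spleen and 36 in neither. The 58 had a median of 74.5 tumor UMIs and the 42 a median of 24, so within the first 100 the listed clonotypes were also the larger ones.

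TCRα clonotypes were listed more often in every node, including nodes of other animals. In the IL-10-Fc tdLN 12.5% of all TCRα tumor clonotypes were listed (12.2% to 12.8%), against 9.72% in the control IgG tdLN, 9.19% in the αCSF1R tdLN and 8.44% in the BF10 tdLN. Those listed in the IL-10-Fc node held 22.5% of TCRα UMIs. The ratio to the highest other node was 1.28 (1.23 to 1.34), and 1.02 (0.970 to 1.06) after every node was thinned to the same number of TCRα UMIs. The thinned shares were 8.57% (IL-10-Fc), 8.44% (BF10), 8.42% (αCSF1R) and 7.67% (control IgG), and thinning did not match the reads per UMI, which still differed between the nodes. The first 100 held 72 listed clonotypes, against 44 (control IgG), 45 (αCSF1R) and 42 (BF10), and 59 in the IL-10-Fc spleen.

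The difference between nodes of the same and of other treatments was again found at the top of the list. Above 50 tumor UMIs, the IL-10-Fc tdLN listed 72.5% of TCRα clonotypes (29 of 40; 57.2% to 83.9%) and the others 25.0% to 30.0%. At 21 to 50 UMIs the shares were 72.9% and 55.7% to 57.1%, and the intervals overlapped. Of the 72 listed TCRα clonotypes, 3 were among the first 10 of the node, 17 among the first 100 and 41 among the first 1000, with a median rank of 743 and a median ratio of tumor to tdLN share of 5.32. The 72 were also chosen by tumor UMIs, which favors the tumor in these ratios and ranks. Unlike for TCRβ, 54 of these 72 were also listed for another treatment and 18 for IL-10-Fc only.

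The leading TCRα clonotypes show both kinds, and 6 of the first 10 are printed with the same use of capitals.
Trav7d-2/Traj22, place 1: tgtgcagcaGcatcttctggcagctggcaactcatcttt
Trav7n-4/Traj22, place 2: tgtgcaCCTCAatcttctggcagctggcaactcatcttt
Trav3n-3/Traj33, place 3: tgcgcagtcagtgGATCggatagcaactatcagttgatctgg
Trav13d-1/Traj31, place 5: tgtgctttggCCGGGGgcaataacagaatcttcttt
Trav14-2 or Trav14n-2/Traj22, place 6: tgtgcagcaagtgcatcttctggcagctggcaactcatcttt
Trav5d-4/Traj33, place 9: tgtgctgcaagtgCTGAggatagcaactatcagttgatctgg

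The Trav7d-2/Traj22 clonotype had 1971 tumor UMIs (1.99% of TCRα) and 96 in the tdLN at rank 10, a ratio of 28.5 (23.2 to 35.3). With 1 base outside V and J it was also listed in 8 of the 9 libraries of other treatments, at 31, 17 and 6 UMIs in the control IgG, αCSF1R and BF10 nodes and at most 17 in their tumors. The level in the IL-10-Fc tumor, and not the presence of the sequence, set it apart. The Trav7n-4/Traj22 clonotype had 403 and 21 UMIs (rank 160, ratio 26.6, 17.2 to 43.5) and the Trav3n-3/Traj33 clonotype 268 and 28 (rank 88, ratio 13.3, 8.98 to 20.4), and neither was listed for any other treatment.

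The clonotype at place 6, whose V region the authors' software left between Trav14-2 and Trav14n-2, had 0 bases outside V and J and was listed in all 9 libraries of other treatments. It had 176 UMIs in the tumor and 179 in the tdLN (rank 4), a ratio of 1.36 (1.10 to 1.69), the smallest among the first 10. The Trav13d-1/Traj31 clonotype (195 tumor UMIs) and the Trav5d-4/Traj33 clonotype at place 9 (145) were not listed in the tdLN, with shares at least 90.2-fold and at least 67.0-fold higher in the tumor. Neither was listed in any other library.

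The other 4 of the first 10 were all listed in the tdLN. A Trav7d-3/Traj31 clonotype had 204 tumor and 8 tdLN UMIs (ratio 35.4, 17.6 to 83.0), a Trav9n-2/Traj48 clonotype 155 and 5 (43.0, 18 to 134), and a Trav16n/Traj13 clonotype 122 and 18 (9.40, 5.71 to 16.4). None of these 3 was listed for another treatment, although the last holds 0 bases outside V and J. A Trav5d-4/Traj53 clonotype with 0 bases outside V and J had 151 and 13 UMIs (16.1, 9.14 to 31.0), and 2296 UMIs in the control IgG tumor.

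**Figure D3:**
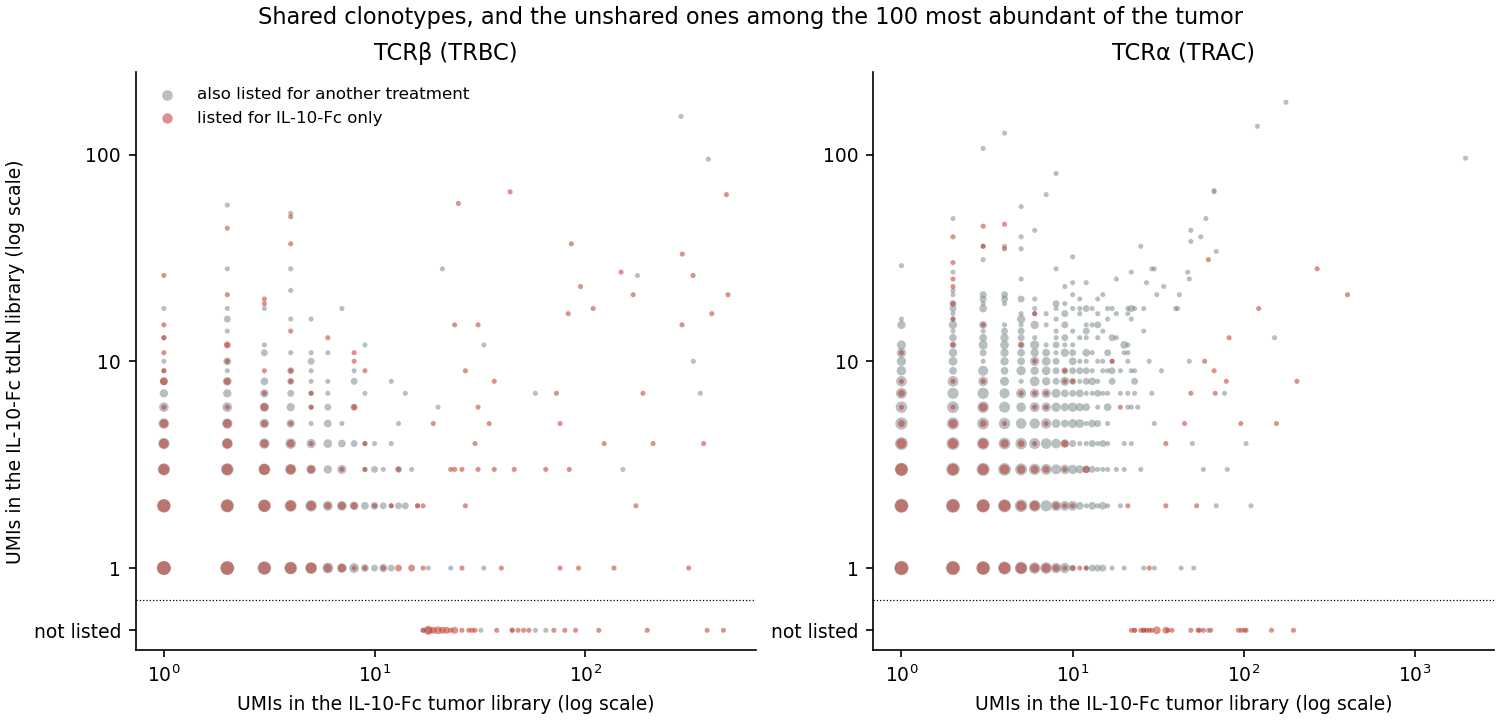
Each dot stands for the clonotypes with a given number of UMIs in the IL-10-Fc tumor (x axis, log scale) and tdLN (y axis, log scale), larger for more clonotypes, and the unlisted clonotypes of the tumor's first 100 lie below the dotted line. Dots in red are listed for IL-10-Fc only. For TCRβ the red dots reach 476 tumor UMIs, and the highest dot in the node, at 153 UMIs, is also listed for another treatment.

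Among the larger shared clonotypes, 4-fold larger shares were counted in each direction. With at least 10 UMIs over both tissues, 233 TCRβ clonotypes could be compared, and the tumor share was 4-fold or more above the tdLN share for 102 (43.8%) and 4-fold or more below it for 27 (11.6%). Of 915 TCRα clonotypes, 161 (17.6%) were 4-fold or more higher in the tumor and 85 (9.29%) in the tdLN. Among those listed for IL-10-Fc only, the tumor-higher counts were 54 of 90 (TCRβ) and 30 of 64 (TCRα), and the tdLN-higher counts 13 of 90 (14.4%) and 12 of 64 (18.8%), so both directions had larger shares than among all shared clonotypes.

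The shared TCRβ clonotypes with the most tdLN UMIs included 2 that were not higher in the tumor.
Trbv16/Trbj1-4: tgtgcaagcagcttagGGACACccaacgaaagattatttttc
Trbv19/Trbj1-1: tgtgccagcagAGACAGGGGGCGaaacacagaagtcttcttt

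The Trbv16/Trbj1-4 clonotype had 44 tumor UMIs and 66 in the tdLN (rank 15), a ratio of 0.948 (0.632 to 1.41). The Trbv19/Trbj1-1 clonotype had 25 and 58 (rank 21), a ratio of 0.613 (0.368 to 0.996). Both were listed for IL-10-Fc only. The other 3 of the 5 were the clonotypes at tumor places 14, 5 and 2.

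Seen from the node, few of its leading clonotypes were in the tumor. Of the 100 most abundant TCRβ clonotypes of the IL-10-Fc tdLN, 19 were listed in the IL-10-Fc tumor (12.5% to 27.8%), against 5 in the BF10, 4 in the control IgG and 1 in the αCSF1R tumor. For TCRα, 38 were listed (29.1% to 47.8%), against 28, 22 and 10. Over all tdLN clonotypes, 2.40% of TCRβ and 7.53% of TCRα were listed in the IL-10-Fc tumor, and the BF10 tumor, a library of more clonotypes, listed 3.21% and 9.74%. The tumor library sizes differ, with 61965 UMIs for αCSF1R and 230941 for IL-10-Fc over all chains. They held 54779 (IL-10-Fc), 90267 (BF10), 9466 (control IgG) and 2493 (αCSF1R) TCRβ clonotypes, and 38233, 55103, 9468 and 2430 TCRα clonotypes. The counts were not matched for this, and a library with fewer clonotypes offers fewer to match. In the node, places 2 to 5 of TCRβ, with 134, 128, 118 and 117 UMIs, were not listed in the IL-10-Fc tumor.

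The Morisita-Horn index, which weighs shared clonotypes by their shares in both libraries and runs from 0 to 1, was split into the contributions of single clonotypes. For TCRβ it was 0.0929 with the IL-10-Fc tdLN, against 0.0138 (control IgG), 0.00799 (αCSF1R) and 0.0142 (BF10). The clonotype at tumor place 14 made up 21% of the sum of products and the 5 largest contributors 62.5%, while clonotypes listed for IL-10-Fc only made up 49.9%. For TCRα the index was 0.101, against 0.0609, 0.0568 and 0.0466, and the Trav7d-2/Traj22 clonotype alone made up 50.4%, with 8.79% from clonotypes listed for IL-10-Fc only. The index thus rested on few clonotypes in both chains.

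Listed and unlisted tumor clonotypes differed in the make-up of the CDR3. The mean CDR3 length was 39.7 bases for the 2546 listed TCRβ clonotypes and 41.8 for the 52233 unlisted ones, a difference of -2.10 bases (standard error over clonotypes 0.0861). Bases outside V and J numbered 7.20 and 10.4 on average, a difference of -3.21. Listed clonotypes thus kept more germline sequence, and their CDR3s were shorter by less than the bases missing between V and J. For TCRα, the lengths were 40.0 and 40.8 (-0.806, standard error 0.0554), and the bases outside V and J were 1.65 and 3.74 (-2.09).

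CDR3s made of germline sequence alone were the ones most often listed. Of TCRβ tumor clonotypes with 0 bases outside V and J, 40.6% were listed in the IL-10-Fc tdLN, and of such TCRα clonotypes 36.0%. They made up 3.81% of the listed and 0.272% of the unlisted TCRβ clonotypes, and 31.6% and 8.03% for TCRα. The differences in length were as large when the nodes of other treatments took the place of the IL-10-Fc node, at -2.27 to -2.35 bases for TCRβ and -0.753 to -0.807 for TCRα.

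Clonotypes listed for IL-10-Fc only lay between the 2 classes. They were 868 of the 2546 listed TCRβ clonotypes (34.1%; 32.3% to 36.0%) and 879 of the 4771 TCRα clonotypes (18.4%; 17.3% to 19.5%). Their CDR3s held 8.77 bases outside V and J for TCRβ and 2.48 for TCRα, against 6.39 and 1.47 in listed clonotypes that another treatment also had. A clonotype listed for another treatment was chosen here by its presence in other animals, so its fewer bases outside V and J are a description.

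**Figure D4:**
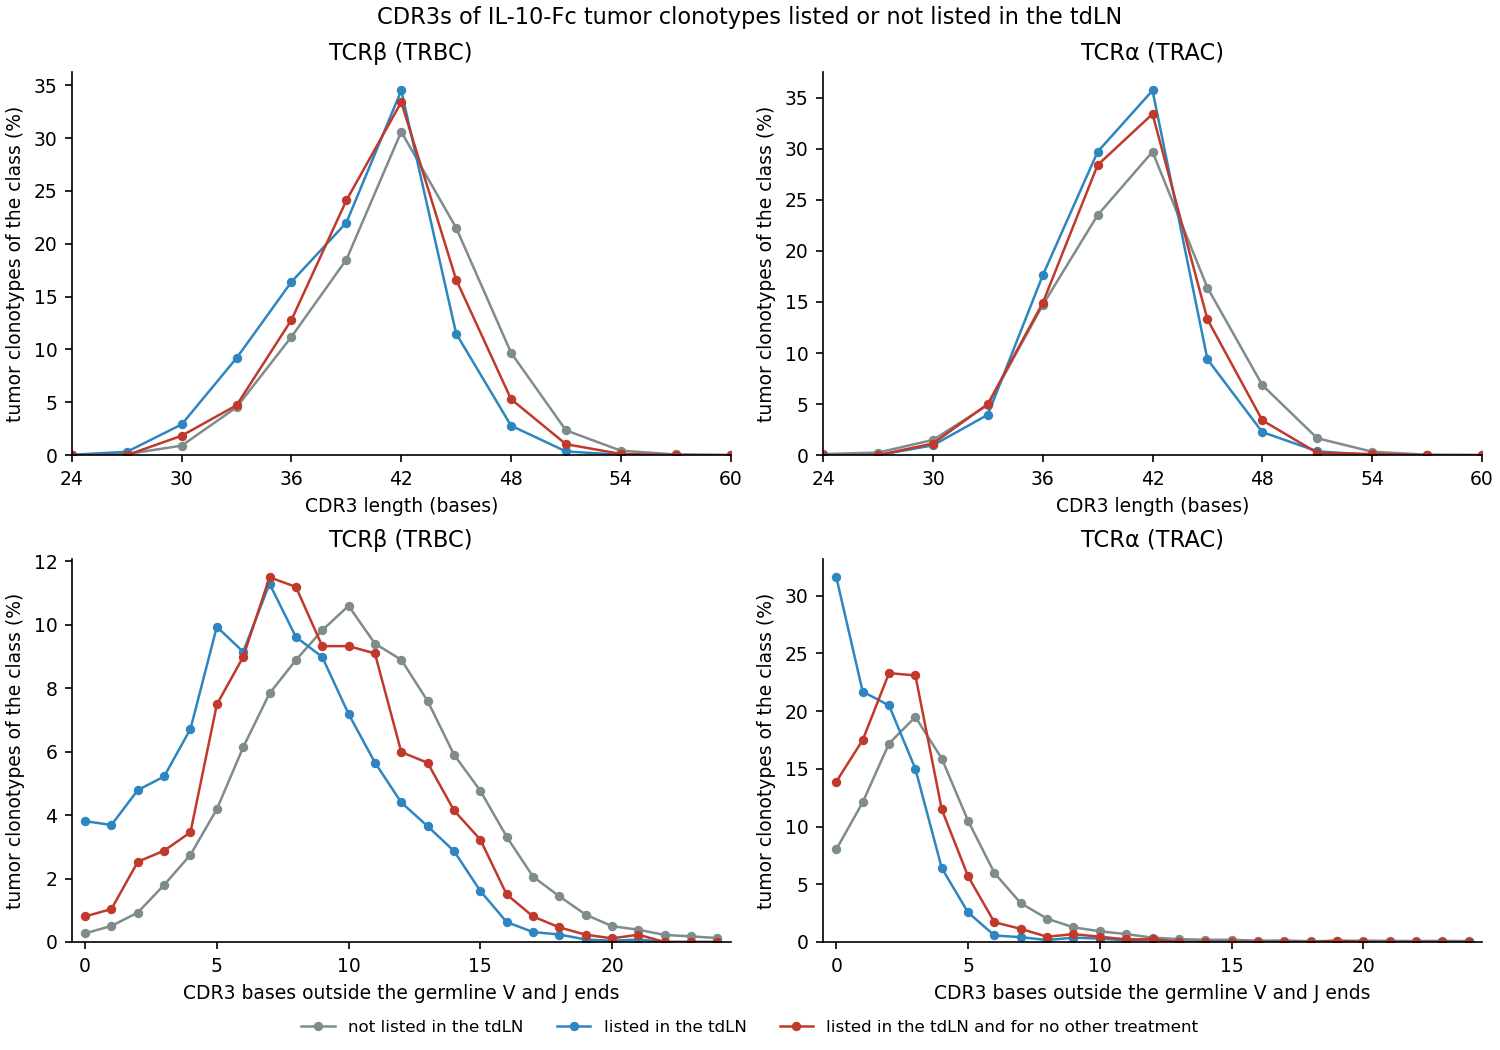
Lines give the percent of tumor clonotypes of a class (y axis) by CDR3 length in bases (upper row) and by CDR3 bases outside the germline V and J ends (lower row), for TCRβ (left) and TCRα (right). The lines of listed clonotypes lie to the left of those of unlisted ones, with means of 7.20 and 10.4 bases outside V and J for TCRβ and 1.65 and 3.74 for TCRα.

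For abundant TCRβ clonotypes the difference with the IL-10-Fc tdLN was smaller and rested on few clonotypes. Among those with over 10 tumor UMIs, clonotypes listed (89) and not listed (123) in the IL-10-Fc tdLN differed in length by -1.01 bases (standard error over clonotypes 0.615). The other nodes listed 19 (control IgG), 18 (αCSF1R) and 33 (BF10) of them, with differences of -4.80, -3.80 and -3.58 (standard errors 1.05, 1.07 and 0.804). Clonotypes are not replicates, so these standard errors do not test a difference between nodes. In the first 100, the 58 listed clonotypes had a mean of 10.6 bases outside V and J and the 42 unlisted ones 9.69, which is the opposite order, given as means without a test. The 45 listed for IL-10-Fc only had a mean of 11.2. For TCRα the 72 listed clonotypes had 1.62 such bases and the unlisted ones 3.63, over those with known germline ends.

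V and J use also differed between listed and unlisted clonotypes, and the segments with the largest differences are given. Trbj2-7 was used by 30.0% of listed (28.2% to 31.8%) and 21.1% of unlisted TCRβ clonotypes (20.8% to 21.5%). Trbv16 was used by 17.7% and 12.0%, and Trbv13-2 by 7.54% and 5.49%. Lower shares in listed clonotypes were found for Trbv19 (6.91% and 8.77%), Trbv14 (3.22% and 4.76%), Trbv15 (3.10% and 4.27%), Trbj2-1 (12.7% and 14.7%) and Trbj1-5 (0.903% and 2.56%). The whole tdLN library used Trbj2-7 in 22.0% and Trbv16 in 11% of its clonotypes, so the listed clonotypes did not mirror the node's own use of these 2 segments.

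The pair of Trbv16 and Trbj2-7, chosen after its values were seen, made up 5.22% of listed and 2.67% of unlisted clonotypes. The same leaning was found with other nodes, where Trbv16 took 16.3% to 19.5% and Trbj2-7 27.6% to 29.4% of listed clonotypes. In clonotypes listed for IL-10-Fc only, Trbv16 took 14.4% and Trbj2-7 25.2%.

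For TCRα, the V regions with the largest differences were all more common among listed clonotypes. They were Trav7d-2 (7.40% and 3.36%), Trav14-2 or Trav14n-2 (6.02% and 2.97%), Trav12n-3 (4.61% and 3.02%), Trav14d-3-dv8 or Trav14n-3 (3.94% and 2.46%) and Trav10 (3.29% and 1.92%). For 31.4% of TCRα tumor clonotypes the V assignment held several near-identical genes, since the mouse Trav locus is partly duplicated, and these were kept as assigned. A wider assignment that includes Trav12n-3 was less common among listed clonotypes (0.272% and 1.30%). One that includes Trav14-2 and Trav14n-2 with further genes was more common (2.14% and 1.75%). The shares therefore also depend on how far the V region was resolved. Among J regions, Traj22 was used by 11.2% of listed and 6.31% of unlisted clonotypes, Traj12 by 5.62% and 3.19% and Traj30 by 6.96% and 5.63%. Trav7d-2 lies at chr14:52683964-52684472 and Traj22 at chr14:54197248-54197307 of GRCm38. With the other nodes, Traj22 took 11.4% to 11.5% of listed clonotypes, Traj12 6.23% to 6.36% and Trav7d-2 7.07% to 7.94%. The leaning to these segments was thus not particular to the IL-10-Fc node.

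**Figure D5:**
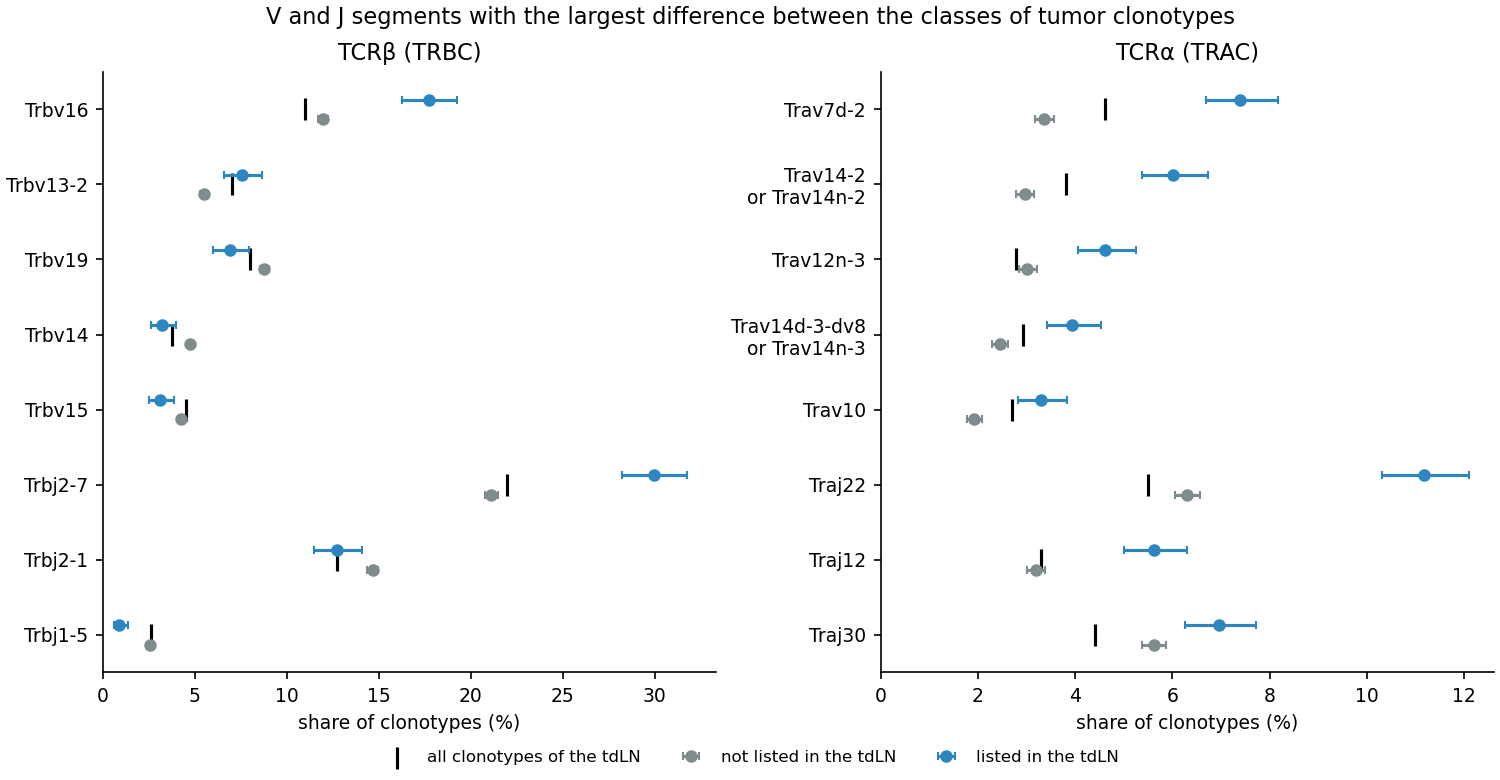
Points give the share of clonotypes (x axis, percent, with 95% Wilson intervals) that used each V or J segment (y axis) among tumor clonotypes listed in the IL-10-Fc tdLN (blue) and not listed (grey), and black marks give the share among all clonotypes of the tdLN. Trbj2-7 stood at 30.0% and 21.1% and Traj22 at 11.2% and 6.31%.

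Many tumor clonotypes that the node did not list by sequence were met there by peptide. With the same V, J and CDR3 peptide but other bases only, the IL-10-Fc tdLN held a further 11.2% of TCRβ and 11.1% of TCRα tumor clonotypes. In the other nodes the values were 8.95% to 13.7% for TCRβ, a range that holds the IL-10-Fc node, and 8.37% to 9.66% for TCRα, all below it. These shares were not thinned, and the IL-10-Fc tdLN held the most TCRα UMIs (137078, against 55901 to 101598). Among the first 100, 7 TCRβ clonotypes were met in this way, against 11 (control IgG), 17 (αCSF1R) and 13 (BF10) in the other nodes. For TCRα there were 5, against 8, 4 and 5. Only clonotypes not listed by their bases can be met in this way. By bases, the IL-10-Fc node listed 58 of the first 100 TCRβ clonotypes, against 7, 5 and 11 in the same order. For TCRα it listed 72, against 44, 45 and 42. Fewer were thus left to be met by peptide in the IL-10-Fc node, so these counts are not on equal terms.

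Chains taken as marks of other T cells were less common in the tumor than in the node. TCRγ chains made up 0.495% of all UMIs in the tumor (0.467% to 0.524%) and 3.19% in the tdLN (3.13% to 3.25%), and TCRδ chains 0.378% (0.354% to 0.404%) and 2.31% (2.26% to 2.36%). The chain of invariant NKT cells, Trav11 or Trav11d with Traj18, took 0.0263% of TCRα UMIs in the tumor and 0.312% in the tdLN, and that of MAIT cells, Trav1 with Traj33, 0.00708% and 0.0430%. In the IL-10-Fc spleen, TCRγ chains took 0.254% and TCRδ chains 0.423% of all UMIs. The invariant NKT and MAIT chains took 0.0470% and 0.0107% of TCRα UMIs there. Such chains were taken here as marks of T cells other than conventional CD8+ T cells. Which cells carried them was not measured, and a TCRγ chain alone does not show a γδ T cell. Only TCR chains were measured, so the described cell type could not be set against CD8 itself. Whether the node library was sorted as the tumor and spleen libraries were could not be told. The part of other cells in the listing of TCRα and TCRβ clonotypes was not tested. Among the 5 shared TCRα clonotypes with the most tdLN UMIs, 2 were invariant NKT chains, with 4 and 3 UMIs in the tumor and 127 and 107 in the tdLN, ratios of 0.0437 (0.0117 to 0.115) and 0.0389 (0.00790 to 0.117).

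The TCRγ and TCRδ clonotypes included single sequences of high level in the node. The most abundant TCRδ clonotype of the tumor, Trdv4/Trdj2, had 28 UMIs there and 2374 in the tdLN (30.2% of its TCRδ UMIs), and 1359 to 2152 in the nodes of other treatments. The next 2 TCRδ clonotypes of the tumor, Trdv2-2/Trdj1 with 12 and Trdv1/Trdj1 with 9 UMIs, were not listed, which puts their tumor share at least 36.0-fold and at least 27.0-fold higher. The 3 leading TCRγ clonotypes, all Trgv2/Trgj2, had 90, 76 and 65 UMIs in the tumor and 4, 107 and 88 in the tdLN. They were also listed in 6, 9 and 8 of the 9 libraries of other treatments.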

How the data were processed

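The study describes TCR libraries made from 100 ng of CD8+ T cell RNA, although the titles of the tdLN libraries do not name CD8. They were made with the QIAseq mouse TCR kit, which primes in the constant regions and ligates a UMI. Sequencing was on an Illumina NextSeq. The authors ran Qiagen's portal, which grouped reads by UMI and assigned V, J and CDR3. The deposited counts are the number of UMIs per clonotype with at least 3 reads and, in another column, with at least 7, without normalization. The labels name the build mm10, and portal version, germline set and error correction are not given in the sources used here.

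Clonotypes were matched exactly between libraries, and 95% Wilson intervals were put on shares. Ratios of a clonotype's tumor share to its tdLN share took exact conditional binomial intervals. Ratios between nodes took approximate intervals on the log scale. These treat the nodes as independent, although the same tumor clonotypes were looked up in each. UMIs stand for molecules counted after PCR and not for cells, so intervals and floors cover counting error only. An unlisted clonotype was bounded at 3 UMIs, or 0.00162% of TCRβ and 0.00219% of TCRα UMIs in the IL-10-Fc tdLN. Depth was 230941 UMIs (tumor) and 340888 (tdLN).

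Germline ends came from the gene models of GENCODE M21 (GRCm38), and 23 TCRα V assignments whose models did not match took the start that their CDR3s share. Ends were found for 99.998% of TCRβ and 99.87% of TCRα tumor clonotypes. Named clonotypes are the first 10 per chain and the 5 shared ones with the most tdLN UMIs (3 for TCRγ and TCRδ), and named segments are the 5 V and 3 J per chain with the largest difference among those with at least 1% of tumor clonotypes. Members and lists were chosen with earlier results of these data known. No test was run, since each side is 1 mixed library. Steps were tested on simulated data. Intervals came from scipy 1.17.1 and tables from pandas 2.3.3 with numpy 2.4.6 under Python 3.11.15, and figures were drawn with matplotlib 3.10.9.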

Additional observations from a re-analysis of the deposited data

How the results depend on the processing

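The Morisita-Horn index has no counting interval here, so its values were called moved unless equal at 3 significant digits. Of 94 alternative values, 48 stayed by that rule, within the counting interval or within 1.5 times the count, 44 moved and 2 turned direction. The 2 are the TCRβ ratio of the IL-10-Fc node to the highest other node, 0.879 as reported, 1.68 at 7 reads and 1.23 at 2 UMIs, and thinning gave 0.997. For TCRα that ratio was 1.17 at 7 reads, 1.21 by CDR3 bases, 1.17 by CDR3 peptide and 1.02 thinned. The percent of TCRβ clonotypes listed was 2.79 at 7 reads, 2.82 at 2 UMIs, 6.38 by CDR3 bases, 25.0 by peptide and 3.77 thinned, and for TCRα 8.24, 10.8, 24.2, 40.6 and 8.57, with 12.0 after merging CDR3s 1 base apart. The percent of TCRβ UMIs was 7.48, 9.02, 12.8, 39.8 and 9.53 in the same order, with 10.4 merged, and for TCRα 16.2, 20.6, 39.3, 63.5 and 17.9. The Morisita-Horn index was 0.0822, 0.108, 0.0970 and 0.214 for TCRβ in that order without thinning, with 0.0946 merged, and 0.0818, 0.108, 0.201, 0.344 and 0.125 for TCRα. The TCRα length difference was -0.915 at 2 UMIs and -1.22 by CDR3 bases, and the difference in bases outside V and J was -1.87 at 7 reads and -1.87 at 2 UMIs. The largest TCRα difference in segment share, 4.86 percentage points, was 5.92 at 7 reads, where Trav7d-2 took the place of Traj22, 6.79 at 2 UMIs and 3.80 merged. The causes were not tested. The counts among the first 100 stayed within 1.5 times under all alternatives. A clonotype of few cells can be missed in either tissue, so unlisted does not mean absent, and mixing 3 mice hides which animal carried a clonotype. No paired analysis was possible because each treatment and tissue has 1 library.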

Other observations

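The peptide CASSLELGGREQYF, nearly always with Trbv16, was also found in tumors of other treatments, where the main forms had different bases. In the BF10 tumor it took 358 TCRβ UMIs (0.204%; 0.184% to 0.227%), and its main form there had 290 UMIs, with 73 in the BF10 tdLN and 0 in every IL-10-Fc library. In the αCSF1R tumor it took 339 UMIs (1.03%; 0.930% to 1.15%), with a main form of 334 UMIs there and 14 in the αCSF1R tdLN. The control IgG tumor held 2 UMIs. The main forms of both treatments differ from the IL-10-Fc forms only within the capitals.
BF10 main form: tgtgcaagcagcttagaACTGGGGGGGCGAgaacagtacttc
αCSF1R main form: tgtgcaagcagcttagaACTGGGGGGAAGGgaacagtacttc

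Other groups of TCRβ clonotypes among the first 100 of the IL-10-Fc tumor also shared V, J and length with peptides at most 1 residue apart. A pair with Trbv26 and Trbj1-4 had 537 tumor UMIs, and 1 of the 2 was listed in the tdLN, with 3 UMIs. A pair with Trbv17 and Trbj1-1 had 442 tumor UMIs, and both were listed, with 102 UMIs. A group of 3 with Trbv17 and Trbj2-3 (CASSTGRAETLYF, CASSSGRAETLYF and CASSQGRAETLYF) had 327 tumor UMIs, and all 3 were listed, with 30 UMIs. A pair with Trbv1 and Trbj2-7 had 77 tumor UMIs and was not listed. The rule for these groups was set after the values were seen.

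In the tdLN, a Trgv6/Trgj1 clonotype, also chosen after its values were seen, took 3898 of 10860 TCRγ UMIs (35.9%) and had 11 UMIs in the IL-10-Fc tumor, and the nodes of the other treatments held 2556 to 5335.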
